A study of Mus musculus with 9 samples.

Results

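The control immunoprecipitation with rabbit IgG (rIgG IP) was compared with the input RNA of the same study, to describe which RNAs are recovered on Protein A beads and IgG without an antibody to the protein of interest. The comparison used 6 of the 9 libraries: 3 of input, prepared without IP, and 3 of the rIgG IP. The remaining 3 libraries, of the IP with antibody to phosphorylated UPF1 (p-UPF1), are given beside them where the level of a gene in that IP is needed. All 9 libraries come from Neuro-2A (N2A) mouse neuroblastoma cells, an established cell line, exposed to 200 nM okadaic acid for 2 h, so that every group, controls included, carries this phosphatase inhibitor. The counts of transcripts that share a gene symbol were summed, which gave 54325 symbols, and the 16280 symbols with a summed count of at least 10 over the 6 libraries were tested.

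UPF1 is the RNA helicase at the centre of nonsense-mediated mRNA decay (NMD), and its phosphorylated form marks transcripts committed to that pathway. In RNA immunoprecipitation with footprinting, RNase I trims the RNA around the captured complexes and only short fragments are sequenced. A control IgG pull-down contains RNA that adheres to beads, tube or antibody. Small nuclear RNAs (snRNAs), which act in splicing and histone mRNA processing, and small nucleolar RNAs (snoRNAs), which guide rRNA modification, are short, folded RNAs held in stable protein particles.

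The rIgG IP libraries were shallow. They held 474491, 205177 and 79010 counts, against 25184464 to 29857955 in input and 5312526 to 6246110 in the p-UPF1 IP. A gene reaches 3 counts at 6.32, 14.6 and 38.0 CPM, the count scaled to a common library total, in the rIgG IP libraries and at 0.119 CPM or less in input. In all, 5640 of the 16280 genes tested (34.6%) had no count in any rIgG IP library, and 160 had at least 10 in each. The 10 most-counted genes took 79.2% to 82.3% of each of the 6 libraries. Among markers of the cell line, at least 11 of 12 sympathetic neuroblastoma genes had 10 or more counts in every input library, and their summed level was 205 to 237 CPM. Markers of astrocytes and epithelium stayed below 10 counts for all 4 genes of each, and of the 4 immune markers Cd74 was present, at 18.9 to 21.4 CPM in input.

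The bulk of the rIgG IP was the bulk of the input. The rRNA-like list, which holds Gm42418, CT010467.1, Lars2, Gm26917 and the 5S genes, took 75.7%, 73.9% and 72.4% of counts in the rIgG IP and 74.2%, 73.3% and 75.0% in input, and these ranges overlapped (ratio of the shares 0.997, exact two-sided permutation p = 0.9). Over the 157 genes with at least 10 counts in all 6 libraries, log2 CPM correlated between rIgG IP libraries at r = 0.949 to 0.966, between input libraries at 0.995 to 0.997, and between an rIgG IP and an input library at 0.737 to 0.789. These coefficients describe genes, which are not independent, and the points share the library depth.

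Gm42418, a long noncoding RNA gene in the ribosomal repeat at chr17:39846958-39848788 (+, GRCm38), held 29.9%, 33.6% and 32.5% of counts in the rIgG IP and 38.8% to 39.9% in input. CT010467.1, annotated as rRNA on the opposite strand at chr17:39846353-39848201 and overlapping Gm42418 over 1244 nt, held 23.4%, 21.9% and 21.9% in the rIgG IP, 14.2% to 16.1% in input, and only 0.0271% to 0.0307% in the p-UPF1 IP. Its ratio of the rIgG IP to input did not pass the test (log2 fold change 0.19 ± 0.30 SE, edgeR adjusted p = 0.80), but its loss between the rIgG IP and the p-UPF1 IP did (log2 fold change -9.37, edgeR adjusted p = 1e-13). Reads of overlapping genes on opposite strands are told apart only where counting uses the strand, and the sources used here do not state it. Lars2, which encodes the mitochondrial leucyl-tRNA synthetase, followed with 15.4%, 12.9% and 12.1% in the rIgG IP against 16.5% to 19.2% in input. Tmem38b, coding for an intracellular cation channel, took 2.16%, 1.82% and 2.39%, and mt-Rnr1, the small mitochondrial rRNA, 1.05%, 1.23% and 1.03%. Yipf1, which encodes a Golgi membrane protein and was counted almost wholly on a non-coding transcript of 3 exons, took 1.42%, 0.893% and 0.504% of the rIgG IP, 0.309% to 0.355% of input, and 0.000132% or less of the p-UPF1 IP.

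Between the rIgG IP and input, 95 genes were higher and 51 lower by edgeR's quasi-likelihood test, at a log2 fold change beyond 1 and a Benjamini-Hochberg adjusted p under 0.05. That is 0.584% of the genes tested called higher and 0.313% called lower. The median log2 fold change was -0.84 over all genes tested with TMM factors and -0.56 with RLE factors, which moved the calls to 120 higher and 27 lower; library totals alone gave 113 and 32, and DESeq2 284 and 51. No source says that the 3 libraries of a group came from separate cultures, so p-values measure only the spread between these libraries. On simulated counts of the same unequal depths, the share of false calls by this test exceeded its nominal rate and most changed genes were missed, so the counts of calls are approximate in both directions. The genes called higher were short: their longest annotated transcript had a median of 166 nt, and 56.8% of them were at most 300 nt long, against a median of 3001 nt and 5.78% for all genes tested. By GENCODE type, they were 26 pseudogenes, 15 snoRNA, 15 snRNA, 12 protein-coding, 10 rRNA, 7 microRNA-type and 10 other genes. Among the 281 snoRNA genes tested, 5.34% were called higher, among the 182 snRNA genes 8.24% and among the 65 rRNA genes 15.4%, whereas the figure was 0.0964% for 12454 protein-coding genes. The genes called lower comprised 23 protein-coding genes, 9 mitochondrial tRNAs, 8 pseudogenes and 11 others. In 67 of the 95 genes every rIgG IP library lay above every input library, and in the 51 genes called lower every one lay below. These genes were selected by a test on the same 6 libraries, so their separation is no further support. Of the 51, 12 had no count in any rIgG IP library, and of the 95, 16 had none in any input library. The share over all genes tested is not given, so these counts of separated genes have no base rate beside them. Of the 95, 27 had no count in at least one rIgG IP library.

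**Figure D1:**
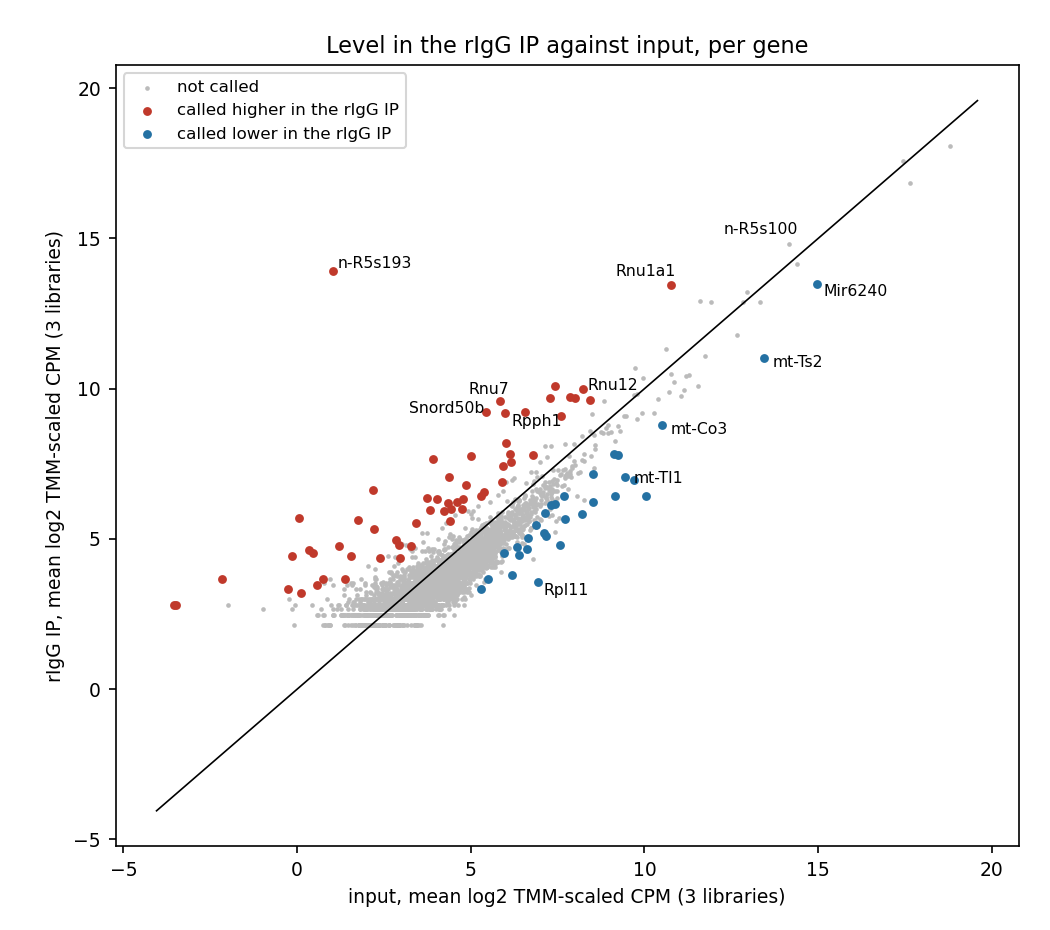
Each point is a gene with counts in all 6 libraries (3057 genes), with the mean log2 TMM-scaled CPM of the 3 input libraries on the horizontal axis and of the 3 rIgG IP libraries on the vertical axis; the line marks equal levels. Red points were called higher in the rIgG IP (58 genes) and blue points lower (30 genes), and n-R5s193 stands farthest above the line.

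The sequences of the members that the account turns on are shown next, read from the GENCODE M21 transcripts of GRCm38. Those called higher in the rIgG IP were Snord50b (chr9:88521797-88521868, -), Rnu7 (chr6:124741225-124741286, -), Rnu1a1 (chr11:87422867-87423030, +) and Rny3 (chr6:47781624-47781725, +). In Snord50b, capitals mark TGATGA and the last CTGA, the letters of the C and D boxes by which box C/D snoRNAs bind their core proteins. In Rnu7 and Rnu1a1, capitals mark AATTTGT, the start of the site on which the Sm-type ring of proteins assembles.
Snord50b: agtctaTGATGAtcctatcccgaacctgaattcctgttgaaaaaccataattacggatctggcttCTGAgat
Rnu7: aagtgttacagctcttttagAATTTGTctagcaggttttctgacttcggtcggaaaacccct
Rnu1a1: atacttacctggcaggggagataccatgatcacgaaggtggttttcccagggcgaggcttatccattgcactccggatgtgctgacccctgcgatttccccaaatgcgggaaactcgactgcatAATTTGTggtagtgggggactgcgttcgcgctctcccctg
Rny3: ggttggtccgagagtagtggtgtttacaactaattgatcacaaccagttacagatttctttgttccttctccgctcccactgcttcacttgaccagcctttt

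On the strand of the transcript, TGATGA followed by CTGA was found in 54 of 78 tested Snord genes (69.2%) and in 11.4% of the 861 other tested genes of at most 300 nt. AATTTGT was found in 37 of 182 snRNA genes (20.3%) and in 0.528% of the 757 other genes of that length. A match of letters is a description and not a mapped site.

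The U RNA genes (symbols beginning with Rnu) had the highest ratio of the rIgG IP to input among the 22 classes compared. They took 1.22%, 1.80% and 2.03% of counts in the 3 rIgG IP libraries and 0.213%, 0.297% and 0.236% in input, a ratio of 6.69, and the groups did not overlap. The deepest rIgG IP library gave the lowest share, and the part of depth was not tested. Of the 8 members tested, 4 were called higher and none lower, and their median log2 fold change was 1.35, beside -0.42 for the 1416 genes of all kinds with a mean of at least 20 CPM over the 6 libraries. With RLE factors 7 of the 8 were called higher. Most of the share was Rnu1a1, a gene of U1, the snRNA that recognises the 5′ splice site. Its counts were 4644, 2922 and 1230 in the rIgG IP and 32824, 48280 and 42908 in input, or 11358 ± 1920 against 1773 ± 375 TMM-scaled CPM (SD, n = 3). All rIgG IP libraries lay above all input libraries. The log2 fold change was 2.68 ± 0.26 SE (edgeR adjusted p = 0.00019), and in the p-UPF1 IP the gene was at 0.0908% to 0.121% of counts, beside 0.126% to 0.192% in input. Rnu1a1 shares reads with 10 near-identical symbols, and the 11 summed gave the same log2 fold change to within 0.01 (2.67). Genes of snRNA type under other symbols fall outside this class, and they differed. Summed, the 6 near-identical symbols led by Gm23849 took 0.249%, 0.386% and 0.478% in the rIgG IP and 0.466% to 0.581% in input. They were not called (log2 fold change -0.94, edgeR adjusted p = 0.012), nor were 63 symbols led by Gm25829 (-0.07). Of 112 such sums of snRNA type, Rnu genes included, 13 were higher and 1 lower.

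Rnu7 is U7, which directs the 3′ end cleavage of replication-dependent histone mRNAs and takes no part in splicing. It had 334, 195 and 82 counts in the rIgG IP and 1368, 1142 and 1561 in the far deeper input, or 777 ± 131 against 57.8 ± 5.70 CPM (SD, n = 3). This was a 13.6-fold difference (log2 fold change 3.76 ± 0.19 SE, edgeR adjusted p = 1.6e-06), with no overlap. Rnu7 was higher again in the p-UPF1 IP, where it had 11162, 14487 and 11672 counts and exceeded the rIgG IP (log2 fold change 1.49, edgeR adjusted p = 1.6e-05). Rnu12 and Rnu11, the U12 and U11 RNAs of the minor spliceosome, also rose, by log2 1.87 ± 0.19 SE and 1.67 ± 0.24 SE (edgeR adjusted p = 0.00026 and 0.0051). For Rnu12 the counts were 304, 221 and 104 in the rIgG IP and 5001, 5028 and 6241 in input. As shares of the rIgG IP libraries, Rnu7 took 0.0704%, 0.0950% and 0.104% and Rnu12 0.0641%, 0.108% and 0.132%. Both were lowest in the deepest library, and the part of depth was not tested. The 4 members that did not pass were the U3 genes Rnu3a and Rnu3b1 (log2 fold changes 0.77 and 0.73), the U5 gene Rnu5g (0.92) and Rnu1b1 (1.04). U3 is a nucleolar RNA that acts in rRNA processing.

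Small nucleolar RNAs took larger shares of the rIgG IP than of input, and their members differed. Box C/D snoRNAs, which guide 2′-O-methylation of rRNA, took 0.147%, 0.268% and 0.323% of counts in the rIgG IP and 0.0962% to 0.0979% in input (ratio 2.40). Box H/ACA snoRNAs, the guides of pseudouridylation, took 92, 67 and 29 counts in the rIgG IP, or 0.0194%, 0.0327% and 0.0367%, against 0.00945% to 0.0109% in input (ratio 2.88). The scaRNAs of Cajal bodies rest on 16, 10 and 3 counts (ratio 2.09). None of these classes overlapped between the groups. In each of the 3, as in the U RNA genes, the deepest rIgG IP library gave the lowest share, and the part of depth was not tested. Of the 79 box C/D symbols tested, 5 were called higher and 2 lower, and of the 37 box H/ACA symbols 1 was called higher. DESeq2 called 18 and 12 higher.

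Snord50b led them. It had 172, 196 and 77 counts in the rIgG IP against 939, 1034 and 1062 in input, or 635 ± 241 against 43.3 ± 2.92 CPM (SD, n = 3). The groups did not overlap, and the log2 fold change was 3.85 ± 0.26 SE (edgeR adjusted p = 1.5e-05). In the p-UPF1 IP it reached 18834, 21549 and 16376 counts, above the rIgG IP by log2 2.43 (edgeR adjusted p = 2.2e-07). Snord43, which GENCODE lists as a microRNA gene, rose by log2 1.47 (80, 53 and 18 counts), Snord32a by 2.51 (15, 7 and 1 counts), Snord83b by 1.60 (18, 16 and 9 counts) and Snord118, the U8 RNA needed for large-subunit rRNA processing, by 1.19 (43, 17 and 10 counts). The most-counted box C/D snoRNA, Snord69, did not pass, with 55, 15 and 5 counts in the rIgG IP and a log2 fold change of -0.25 (edgeR adjusted p = 0.77). Snord72 and Snord11 went the other way, with log2 fold changes of -1.77 each on 2 to 11 counts a library. Among box H/ACA snoRNAs, Snora3 rose by log2 3.60 on 7, 11 and 3 counts, and the most-counted, Snora47, had 5, 1 and 0 counts and a log2 fold change of -0.30 (edgeR adjusted p = 0.80). Scarna2, a guide for snRNA modification, had 10, 8 and 3 counts and a log2 fold change of 1.51 ± 0.31 SE (edgeR adjusted p = 0.044). The call for Scarna2 was lost when any rIgG IP library was left out. The host transcripts of snoRNAs gave no call among 17 tested, and Snhg14, the most-counted, had a log2 fold change of -0.33.

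**Figure D2:**
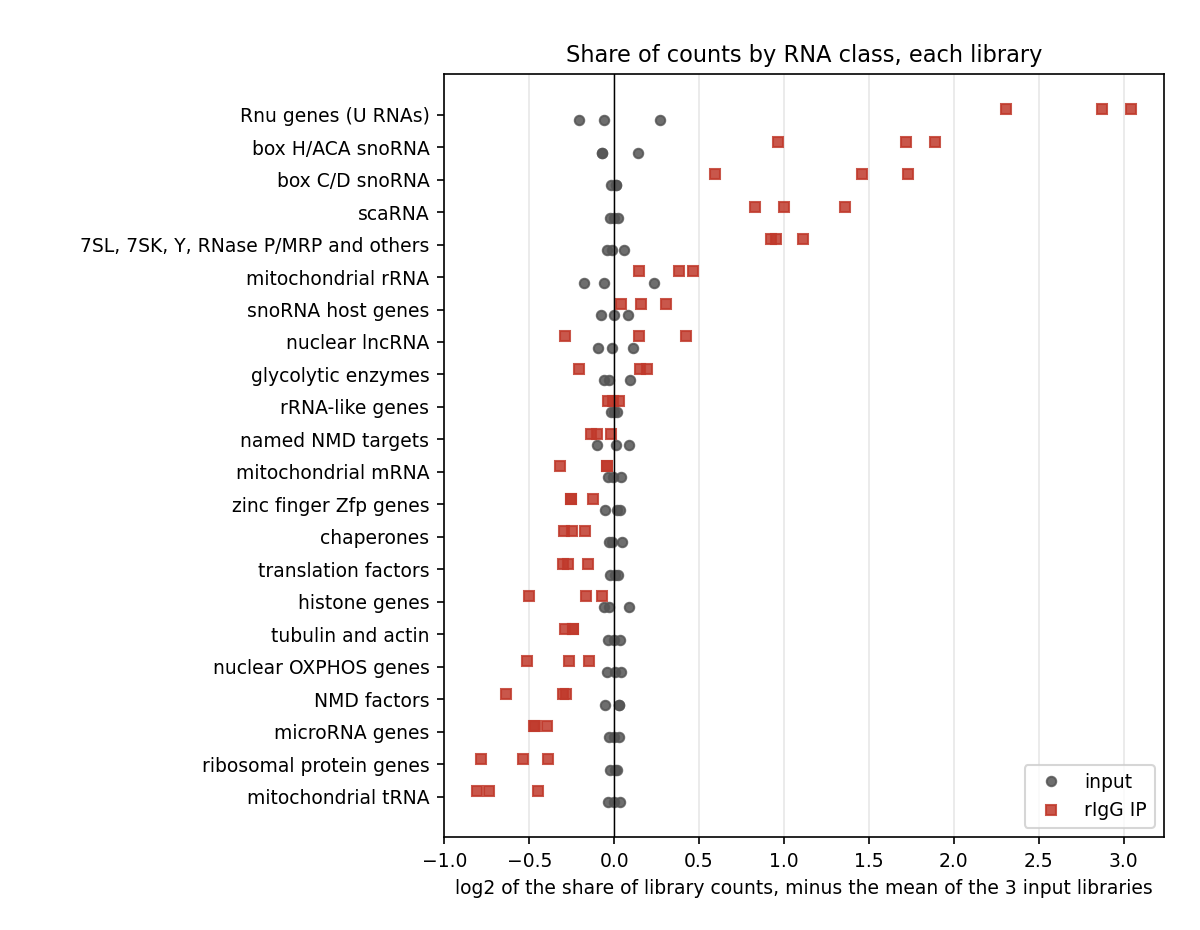
Each row is a class of RNA, and each point gives the log2 of its share of the counts of a library, minus the mean of the 3 input libraries (grey circles, input; red squares, rIgG IP). The U RNA genes, the snoRNAs, the scaRNAs and the structured polymerase III RNAs lie to the right of all input points, and mitochondrial tRNAs and ribosomal protein genes lie to the left.

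The list of other structured RNAs, most of them made by RNA polymerase III, took 0.799%, 0.909% and 0.815% of counts in the rIgG IP and 0.408% to 0.437% in input (ratio 1.99), again without overlap. Its members differed. Rpph1, the RNA subunit of RNase P, which trims the 5′ end of tRNA precursors, had 220, 137 and 80 counts in the rIgG IP and 1434, 1382 and 1614 in input, or 592 ± 51.3 against 63.1 ± 1.24 CPM (SD, n = 3). Its log2 fold change was 3.22 ± 0.17 SE (edgeR adjusted p = 1.6e-06), and in the p-UPF1 IP it was lower than in the rIgG IP by log2 -3.01 (edgeR adjusted p = 2e-12), at 62.1 to 73.9 CPM of library total. The share of Rpph1 in the rIgG IP, 0.0464%, 0.0668% and 0.101%, was lowest in the deepest library. Rny3, a Y RNA bound by the Ro60 protein, had 673, 231 and 81 counts against 7003, 5481 and 9176, and a log2 fold change of 1.88 ± 0.30 SE (edgeR adjusted p = 0.0089). Its share in the rIgG IP, 0.142%, 0.113% and 0.103%, was instead highest in the deepest library. The part of depth was not tested for Rpph1 or Rny3. The most-counted member, Rny1, another Y RNA, had 1090, 362 and 88 counts and a log2 fold change of -0.03 ± 0.35 SE (edgeR adjusted p = 0.96). Its rIgG IP libraries were spread on both sides of input, at 1657 ± 980 against 1729 ± 122 CPM (SD, n = 3). Both Y RNAs were lower in the p-UPF1 libraries than in the rIgG IP, at log2 fold changes of -5.20 and -4.80 (edgeR adjusted p = 3.9e-13 and 2.5e-11). The signal recognition particle RNA gene Rn7s1 (log2 fold change 0.41), the 7SK gene Rn7sk (0.71) and the RNase MRP gene Rmrp (0.70) did not pass. Rn7s6 was called higher on 0, 43 and 0 counts, all of them from a single library.

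Away from the lists, some of the largest differences lay in transcripts of several types. Gm26615, a long noncoding RNA at chr4:133085474-133089146, had 30, 14 and 19 counts in the rIgG IP, against 0, 6 and 2 in input (log2 fold change 9.45 ± 0.58 SE, edgeR adjusted p = 6.7e-06). The p-UPF1 IP libraries held 1, 0 and 0. Kif24, which encodes a centriolar kinesin, had 49, 43 and 45 counts against 309, 496 and 288, or 221 ± 116 against 15.8 ± 5.77 CPM (SD, n = 3), and a log2 fold change of 3.63 ± 0.39 SE (edgeR adjusted p = 0.00047). Its counts were almost equal in 3 libraries of unequal depth, so that its level was highest in the shallowest, and the part of depth was not tested. A non-coding transcript of 2 exons held 90.6% of the Kif24 counts. Gm11127, a protein-coding gene at chr17:36055816-36058371, had 78, 15 and 10 counts against 104, 112 and 100 (log2 fold change 4.83 ± 0.34 SE, edgeR adjusted p = 1.9e-05), and it was as high in the p-UPF1 IP (log2 fold change over the rIgG IP -0.31, edgeR adjusted p = 0.41). Gm27509, of microRNA type and 79 nt long, had 72, 30 and 16 counts in the rIgG IP and 0, 157 and 24 in input. The call for Gm27509 (log2 fold change 5.86 ± 0.98 SE, edgeR adjusted p = 0.013) was lost when any rIgG IP library was left out. Gm23806, a gene of rRNA type on chromosome X, had 85, 29 and 11 counts against 433, 453 and 563 (log2 fold change 2.93 ± 0.25 SE, edgeR adjusted p = 7.2e-05).

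**Figure D3:**
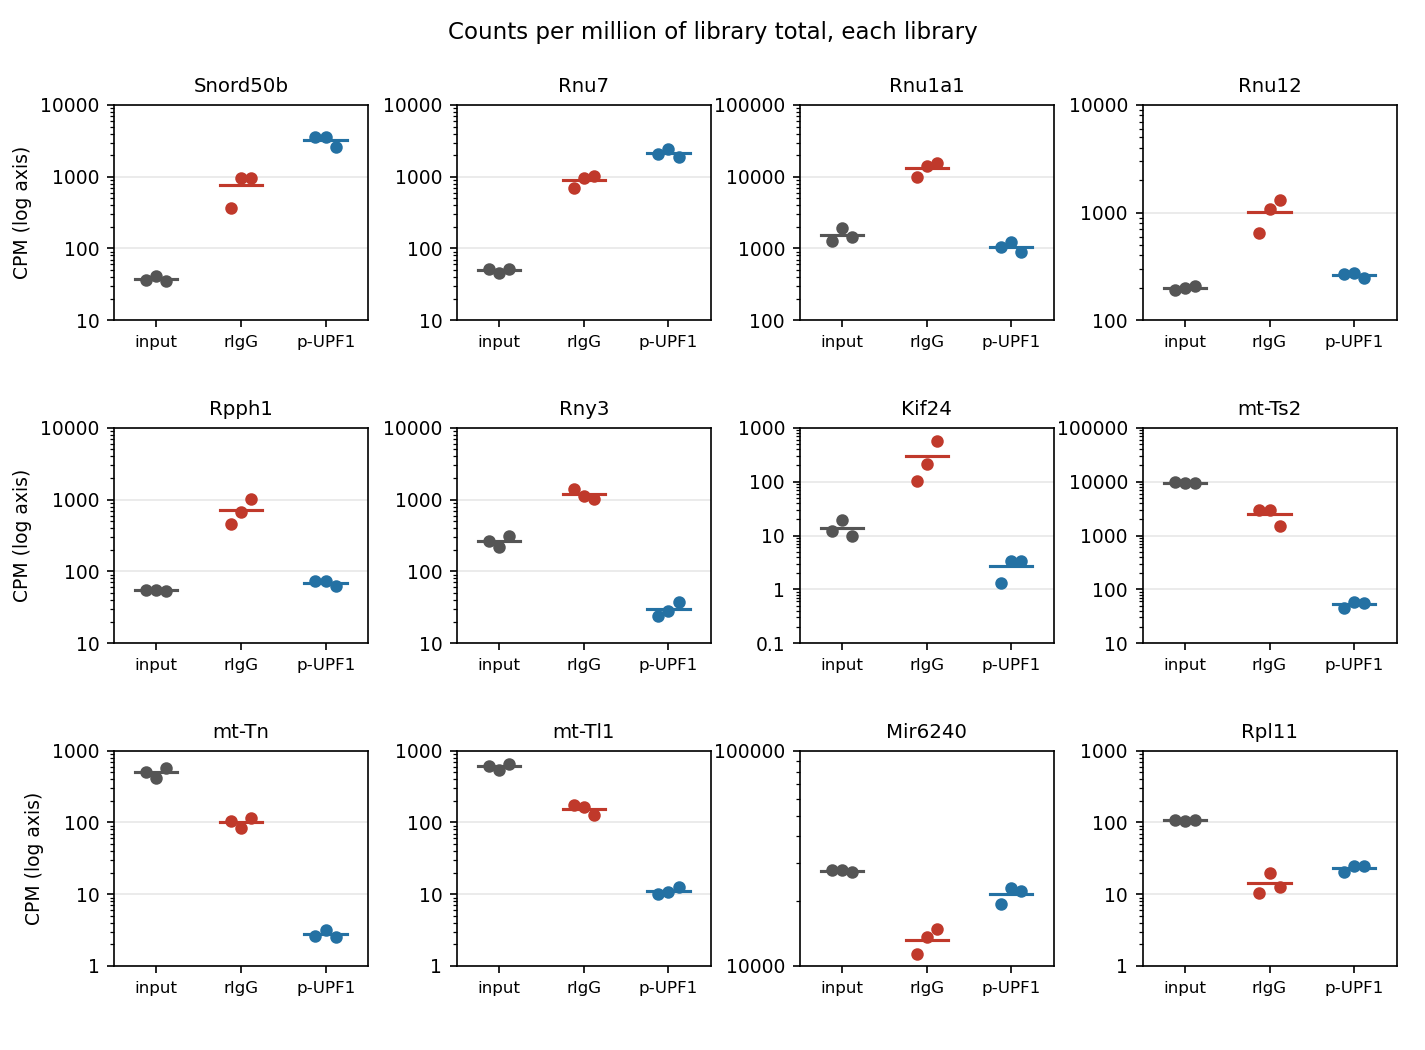
CPM of library total, on log axes, for 12 genes in the 3 libraries of input (grey), the rIgG IP (red) and the p-UPF1 IP (blue); bars are means. Snord50b and Rnu7 climb from input through the rIgG IP to the p-UPF1 IP, Rnu1a1, Rnu12, Rpph1, Rny3 and Kif24 are highest in the rIgG IP, and the mitochondrial tRNAs step down from input to the rIgG IP to the p-UPF1 IP; Mir6240 and Rpl11 are lowest in the rIgG IP.

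The clearest class on the lower side was that of mitochondrial tRNAs, which are transcribed from the mitochondrial genome for translation inside the organelle. They took 1.45%, 1.86% and 1.52% of counts in the rIgG IP and 2.47% to 2.61% in input (ratio 0.631), without overlap. Of the 22 genes, 9 were called lower and none higher, with a median log2 fold change of -1.19. In the p-UPF1 IP the class was at 0.0356% to 0.0439%. The tRNAs for serine (mt-Ts2) and asparagine (mt-Tn), both called lower, and for histidine (mt-Th), which was not, are printed with the anticodon in capitals. They lie at chrM:11613-11671 (+), chrM:5089-5159 (-) and chrM:11546-11612 (+), so that mt-Th ends at the base before mt-Ts2 begins.
mt-Ts2: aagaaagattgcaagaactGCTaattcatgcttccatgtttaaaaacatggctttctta
mt-Tn: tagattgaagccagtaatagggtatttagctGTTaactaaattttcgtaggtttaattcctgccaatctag
mt-Th: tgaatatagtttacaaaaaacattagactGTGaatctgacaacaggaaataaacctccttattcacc

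The most-counted of them, mt-Ts2, had 1392, 606 and 121 counts in the rIgG IP and 256261, 237249 and 283516 in input, or 2357 ± 1268 against 11061 ± 336 CPM (SD, n = 3). Its log2 fold change was -2.22 ± 0.38 SE (edgeR adjusted p = 0.015). Its neighbour mt-Th had 2874, 2317 and 770 counts against 172399, 172622 and 169914, or 7825 ± 2432 against 7360 ± 510 CPM, and did not pass (log2 fold change 0.09, edgeR adjusted p = 0.85). For mt-Tn the counts were 50, 17 and 9 against 13189, 10575 and 17017 (log2 fold change -2.58 ± 0.26 SE, edgeR adjusted p = 0.00026), and for the leucine tRNA mt-Tl1 82, 34 and 10 against 16122, 13509 and 19739 (-2.16 ± 0.26 SE, edgeR adjusted p = 0.0012). The others called lower were mt-Tk, mt-Ty, mt-Tm, mt-Tc, mt-Ts1 and mt-Tq, with log2 fold changes of -2.64 to -1.33.

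Of the other mitochondrial RNAs, the rRNAs took 1.75%, 2.17% and 2.05% of counts in the rIgG IP and 1.39% to 1.86% in input, with overlap, and mt-Rnr2, the large rRNA, had a log2 fold change of -0.42 (edgeR adjusted p = 0.54). The 13 mRNAs took 0.652%, 0.792% and 0.791% against 0.795% to 0.836%, below input without overlap, and 1 was called lower. Their median log2 fold change was -0.15 with TMM factors and 0.17 with RLE factors, so that its sign depended on the scaling. The most-counted, mt-Co1 of complex IV, had 727, 350 and 122 counts and a log2 fold change of -0.68 (edgeR adjusted p = 0.27). mt-Co3, of the same complex, was called lower (175, 89 and 67 counts, log2 fold change -1.70), whereas Gm28437, whose sequence is wholly shared with it, was called higher with 186, 99 and 0 counts against 0 in every input library. Summed, the pair was not called.

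Many called genes share sequence with other genes. At least 50% of the 35-nt windows of 61.1% of the genes called higher and of 35.3% of those called lower also occur in another gene, against 8.93% of all genes tested. Counts were therefore also summed over families of symbols with near-identical transcripts. This left 107 families higher (0.690% of 15510 tested) and 86 lower (0.554%). Of the 95 genes called higher, 46 had copies, and 17 of these lay in a family called higher. All 49 without copies kept their call, but their counts are the same in both fits, so this is no further support. Of the 51 genes called lower, 31 had copies, and 5 of these lay in a family called lower. Among the 26 pseudogenes called higher, 24 had copies and 5 lay in a family that was higher, and 20 had no count in at least one rIgG IP library. The family sums estimate a lower spread (biological coefficient of variation 7.95%, against 14.8% for symbols) and call families on few reads: 42 of the 107 had fewer than 10 counts over the rIgG IP libraries together.

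**Figure D4:**
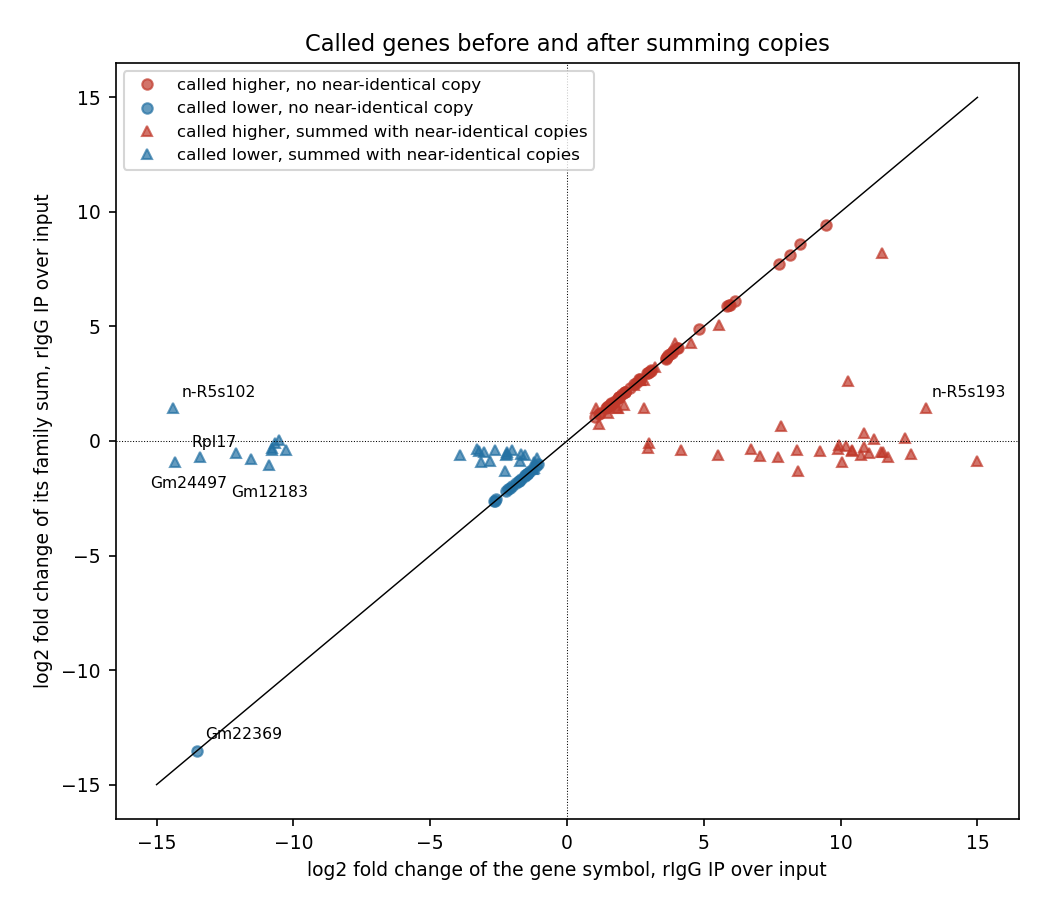
Log2 fold change of the rIgG IP over input for each called gene (horizontal axis) and for the family sum it belongs to (vertical axis); red, called higher; blue, called lower; circles, genes without a near-identical copy; triangles, genes summed with copies. Circles lie on the line of equal values, whereas many triangles fall near 0 on the vertical axis; fold changes of genes with no count in a group rest on the prior count of the fit.

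Copies of the 5S rRNA gene were called in both directions. 5S rRNA is the small RNA of the large ribosomal subunit that RNA polymerase III makes from repeated genes. n-R5s193 had 16872, 3802 and 687 counts in the rIgG IP and 21, 60 and 85 in input, whereas p-UPF1 IP libraries held 13, 26 and 14. It was called higher (log2 fold change 13.14 ± 0.94 SE, edgeR adjusted p = 2.1e-05). n-R5s102 had none in any rIgG IP or p-UPF1 IP library and 5246, 3461 and 7501 in input, at least 50.6-fold lower in the rIgG IP against 3 counts over the group. n-R5s109 was called higher, with 682, 280 and 82 counts against 4598, 3181 and 4478. n-R5s100, which carries most of the 5S counts in input, took 2.74%, 3.11% and 4.19% in the rIgG IP and 1.53% to 1.69% in input but did not pass (log2 fold change 0.64 ± 0.23 SE, edgeR adjusted p = 0.28). Which copy a read was given to is uncertain. Summed over the family of 19 symbols, 5S counts were 32239, 11096 and 4340 in the rIgG IP and 441226, 465559 and 518959 in input, or 6.79%, 5.41% and 5.49% against 1.70% to 1.85% of counts. The family was higher in the rIgG IP (54406 ± 22220 against 20132 ± 897 CPM, SD, n = 3; log2 fold change 1.44 ± 0.32 SE, edgeR adjusted p = 0.0027), without overlap, and it was at 1.20% to 1.29% of counts in the p-UPF1 IP.

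Ribosomal protein mRNAs, as a class, took 0.536%, 0.484% and 0.409% of counts in the rIgG IP and 0.692% to 0.711% in input (ratio 0.673), without overlap, and 11 of 82 genes tested were called lower and none higher (4 lower with RLE factors). The median was -0.62 over the 69 members with a mean of at least 20 CPM, beside -0.42 over all genes at that level, and -0.63 over the 82, beside -0.84 over all genes tested, and the most-counted member, Rpl41, did not pass (120, 47 and 1 counts, log2 fold change -0.64). Rpl17 had no count in the rIgG IP and 2673, 2618 and 2842 in input, at least 25.4-fold lower. With its 8 copies it had 32, 12 and 10 counts, and the family was not called (log2 fold change -0.71). Every one of the 11 genes has copies. Rpl11, for example, had 5, 4 and 1 counts against 2810, 2643 and 3238 and a log2 fold change of -3.23, and its family of 4 had -0.42 and was not called.

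Of the 10 most reduced genes with at least 100 counts in every input library, all had no count in the rIgG IP, so that each fold is a lower bound against 3 counts over the group. Beside n-R5s102 and Rpl17, they were Gm24497 (191 nt, snRNA type, at least 47.6-fold lower), Gm22369 (104 nt, microRNA type, at least 27.5-fold), Gm12183 (10.1-fold), Gm20390, Hist1h2ad (4.41-fold), Gm12966 (4.08-fold), Gm21596 (4.04-fold) and Gm23941 (3.73-fold). Gm22369 is the only member of the 10 without a near-identical copy, and it had no count in the p-UPF1 IP either. Hist1h2ad, a histone H2A gene, lay in a family of 14 that was lower by log2 -1.04, and the families of the other 8 were not called lower. For Gm24497, whose family of 6 held 1180, 793 and 378 counts in the rIgG IP, the log2 fold change of the sum was -0.94.

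Mir6240 was called lower among genes of high level. It took 1.13%, 1.36% and 1.48% of counts in the rIgG IP and 2.73% to 2.80% in input (log2 fold change -1.46 ± 0.25 SE, edgeR adjusted p = 0.014). It held most counts of the microRNA list, whose share was lower without overlap (ratio 0.735). In input these were 725705, 704599 and 815739 of the list's 794625, 782296 and 893929 counts. In the rIgG IP they were 5382, 2796 and 1172 of 10493, 4521 and 1830. The lower share of the list therefore rests on Mir6240 and does not describe its other members. Mir6236, the next in counts, took 1.06%, 0.827% and 0.806% of the rIgG IP and 0.253% to 0.300% of input, without overlap, and had a log2 fold change of 1.42 ± 0.31 SE that did not pass by symbol (edgeR adjusted p = 0.059) but did in the fit of family sums (1.44 ± 0.25 SE, edgeR adjusted p = 7.6e-06). Of the 52 genes of the list tested, 1 other was called, Mir5099, which rose by log2 1.61. Letm2, which codes for a mitochondrial inner membrane protein and was picked out after its values were seen, was lower by log2 -2.67.

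For messenger RNAs in general, differences were small. The shares of 9 of the lists of protein-coding genes lay below input in all 3 rIgG IP libraries, with ratios of 0.673 for ribosomal protein genes, 0.755 for NMD factors, 0.807 for nuclear-encoded genes of oxidative phosphorylation, 0.837 for tubulins and actins, 0.844 for translation factors and for histones, 0.848 for chaperones, 0.865 for Zfp genes and 0.912 for mitochondrial mRNAs. Glycolytic enzymes (1.03), nuclear long noncoding RNAs (1.07) and snoRNA host genes (1.12) overlapped input. Shares are relative, and a lower share here cannot be told apart from a higher share elsewhere in the same library. In these lists other than ribosomal protein genes, the calls were mt-Co3, Eif1 and Hspa4 lower, Zfp575 and Zfp654 higher, Hist1h2ad lower, and Hist1h2bn and Hist2h2aa2 higher. The most-counted members did not pass: Eef1a1, the translation elongation factor (517, 232 and 82 counts, log2 fold change -0.74), Actg1 (192, 69 and 26, -0.73), Hsp90ab1 (226, 93 and 40, -0.11), Pkm (70, 24 and 10, 0.25), Atp5b (126, 62 and 17, -0.27), Hist1h4k (20, 15 and 4, -0.58), Smg1 (11, 8 and 3, -0.87), Zfp106 (11, 3 and 2, -0.94) and Malat1 (154, 90 and 41, -0.27). The immunoglobulin list held 387 symbols, of which 1 was tested, Ighmbp2, a helicase gene that only shares the prefix; it had 20 to 28 counts in input and none in the rIgG IP.

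In the 22 classes compared by share, the rIgG IP lay above input in 5, below in 11 and overlapped it in 6. The microRNA list is among those below, and its lower share rests on Mir6240. Each of the 16 without overlap has an exact two-sided permutation p of 0.1, the smallest that 3 against 3 libraries allow, and a Benjamini-Hochberg adjusted p of 0.138 over the 22, so none can pass 0.05.

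Rabbit IgG is the study's negative control for the p-UPF1 IP. The study did not define its NMD targets against it, but by the p-UPF1 IP over size-matched input together with a rise on UPF1 knockdown. The 11 named NMD targets show what the rIgG IP holds of them. As a list they took 0.0594%, 0.0609% and 0.0645% of counts in the rIgG IP and 0.0611% to 0.0695% in input, with overlap (ratio 0.942), and none of the 11 was called in either direction between these groups. The list held 282, 125 and 51 counts in the rIgG IP and 18077, 16583 and 18237 in input. Most of them were of Map1b, so the ratio mainly describes that gene. Map1b, which encodes a microtubule-associated protein of neurons, had 226, 97 and 42 counts in the rIgG IP and 14537, 13213 and 14540 in input, or 438 ± 112 against 603 ± 27.2 CPM (SD, n = 3), with a log2 fold change of -0.42 ± 0.20 SE (edgeR adjusted p = 0.44). Mapt, the tau gene, had 24, 6 and 5 counts (log2 fold change 0.23 ± 0.27 SE, edgeR adjusted p = 0.78). The others were near the limit of depth, with 0 to 7 counts a library, from Elavl4 (7, 3 and 3 counts, log2 fold change -0.86) to E2f7 (0, 1 and 0 counts, -1.66). Differences in these 9 genes were not detectable at this depth.

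Set against the same rIgG IP libraries, the p-UPF1 IP had 17.5% of 12033 genes tested higher and 5.34% lower; this comparison shares its control libraries with those above. Map1b was higher, by log2 1.54 ± 0.22 SE (edgeR adjusted p = 8.6e-06), and the other 10 targets did not pass, with log2 fold changes of -0.42 for Elavl4 to 2.65 for E2f7. Against input, without the rIgG IP in the fit, the p-UPF1 IP had log2 fold changes of 0.86 for Map1b, 1.01 for Grin1, 0.76 for E2f7, 0.58 for Mapt and -1.54 for Elavl4. Of the genes described above, Rnu1a1, Rpph1, Rny3, Kif24, n-R5s109, Gm23806 and Yipf1 were lower in the p-UPF1 IP than in the rIgG IP, by log2 -3.38, -3.01, -5.20, -6.04, -2.94, -2.72 and -12.88, whereas Snord50b and Rnu7 were higher, as given above. Beside them Gm24245, a 57-nt gene of microRNA type, was higher in the rIgG IP than in input by log2 2.45 (214, 215 and 146 counts against 3438, 3855 and 3643), and the p-UPF1 IP exceeded the rIgG IP by a further 3.73.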

How the data were processed

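RNA immunoprecipitation footprinting libraries of N2A cells were analysed in 3 groups of 3 taken from the sample labels. According to the study's methods, the authors read out single-end short fragments, aligned them with STAR 2.7.0f to GRCm38.p6 with GENCODE M22, and deposited Salmon 0.13.1 estimated counts per transcript, given as whole numbers and not scaled. Fragment selection by size, rRNA-rich content and the division of reads among copies bear on every count.

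Counts were summed by gene symbol, symbols with at least 10 counts over the fitted libraries were kept, and groups were compared with edgeR 4.0.16 (glmQLFit, glmQLFTest, TMM factors, R 4.3.3), at a log2 fold change above 1 in size and a Benjamini-Hochberg adjusted p under 0.05. The edgeR step was tested on simulated data with the depths of these libraries, where more of its calls were false than the nominal rate allows. CPM values in means ± SD are TMM-scaled. Each SE is the size of the log2 fold change divided by the square root of the F statistic of its test. It is therefore not an estimate separate from the p-value. Class shares were compared by exact permutation. Zero groups were set to 3 counts over the group. Families join symbols sharing 35-nt windows (at least 50% of the smaller and 10% of the larger), on GENCODE M21 transcripts, a choice made after the data were seen.

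The members and gene lists were chosen with earlier results of these data known. Genes named by rule were the 10 most increased with at least 10 counts in every rIgG IP library, the 10 most reduced with at least 100 counts in every input library, the 10 most abundant in the rIgG IP, the most-counted member of each list, and the 11 NMD targets; every other gene was chosen after its values were seen. Alternatives covered normalization, filters, tools, thinning, a replicate block and leaving out each library. Counting intervals and floors cover counting error only. Some items are not reported here.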

Additional observations from a re-analysis of the deposited data

How the results depend on the processing

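The counts of calls depended on the processing more than the direction of single genes did: in 870 refits of 59 named genes between the rIgG IP and input no fold change reversed, 31 calls were lost and 7 gained, and 36 genes higher and 12 lower were called under the settings used in the report and under every one of the 15 alternatives that sum counts by symbol. Of these 36, Gm10076, Gm10288 and Gm4204 lay in families that were not called once copies were summed. Of the 12, Gm24497, Gm48161, Rpl11, Rpl17, Rps7 and mt-Co3 lay in families not called, and n-R5s102 in one called higher. The main counts were 95 genes higher and 51 lower. Higher genes numbered 284 with DESeq2 and 256 without a filter on low counts; genes lower came to 157 under filterByExpr, 259 unfiltered, 100 when the p-UPF1 IP joined the fit, 86 after summing families, 32 from library totals and 27 under RLE. Transcripts in place of summed counts gave 0 calls in both directions, whereas 384 genes higher and 1290 lower had an unadjusted p under 0.05 in the symbol fit. Leaving out a library gave 65 to 180 genes higher and 25 to 134 lower; the extremes came without rIgG IP replicate 2 (65 and 25) and without input replicate 2 (180 and 134). For family sums (107 higher, 86 lower), DESeq2 gave 231 and 18, thinning the deeper libraries 60 and 12, RLE factors 28 lower, library totals 33 lower, and leaving out a library 64 to 96 higher and 34 to 82 lower. Deviations from the group mean correlated between same-numbered libraries at -0.0107, -0.0177 and -0.0112 over 9809 genes. Only 1305, 502 and 170 genes had at least 10 counts in the rIgG IP libraries. These correlations therefore cannot decide whether replicate numbers pair the libraries. The replicate block gave 98 genes higher and 69 lower, and 53 and 26 families. mt-Ts2 lost its call without rIgG IP replicate 2 (log2 fold change -2.33), and Mir6240 with filterByExpr, when thinned (-0.94) and without rIgG IP replicate 2 (-1.53), while n-R5s100 and Yipf1 were called higher with library totals (1.07 and 1.49). No class share changed direction. The cause was not tested in any of these. Depth limits the comparison to genes well above 38.0 CPM in the shallowest rIgG IP library.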
